A study of Mus musculus with 24 samples.

Results

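MHC class II antigen presentation was examined in sorted mouse lung macrophages through 10 genes listed by name: the chains H2-Aa, H2-Ab1 and H2-Eb1, the invariant chain Cd74, the transactivator Ciita, the peptide exchange genes H2-DMa, H2-DMb1 and H2-DMb2, and the costimulatory receptors Cd86 and Cd40. All 10 were found by symbol among the 43430 Ensembl gene IDs of a table of raw RNA-seq counts, and all 10 passed the filter on low counts. The series holds 24 libraries in 6 groups of 4, from C57BL/6J mice with no other genotype named. Young animals were 8 to 12 weeks old and old animals over 18 months. Naive animals gave a Siglec F-high sort only, and animals 28 days after asbestos gave a Siglec F-high and a Siglec F-low sort. The sample labels called all of these cells alveolar macrophages, and the series text spoke of resident and monocyte-derived cells. The groups were thus young naive F-high, old naive F-high, young asbestos F-high, old asbestos F-high, young asbestos F-low and old asbestos F-low. Neither an asbestos dose nor the animal behind each library was given, so p-values measure only the spread between these libraries, which may be partly technical.

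MHC class II molecules are pairs of an alpha and a beta chain that show peptides from engulfed material to CD4 T cells. Cd74 fills the groove of a new pair and guides it to the endosome, proteases cut Cd74 down to a short remnant, and H2-DM swaps that remnant for a peptide, a step that H2-O restrains. Ciita is the master regulator of the family and acts on a conserved upstream element bound by the RFX, CREB and NF-Y factors. Dendritic cells and B cells carry class II at high levels, whereas resident alveolar macrophages are known for low levels. Cells of the B lineage that slip through a sort therefore bring class II transcripts with them, and their own transcripts serve as a check.

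Library totals were 13423080 to 18124526 counts in 22 libraries. Replicate 3 of old asbestos F-high held 3894699 counts, of which 51.5% came from rRNA-related genes, against at most 0.873% in the others. Replicate 3 of young asbestos F-high held 11889517 counts but had a count in only 12528 genes, against 15037 to 18820 genes elsewhere. Counts of called genes are therefore given from all 24 libraries (13467 genes tested) and from the 22 without these (13629 genes tested), and single values are from the 24 unless stated. Itgax and Chil3, from the list of alveolar macrophage markers, were high in every group. Mean Itgax was 1506 to 2505 CPM (counts scaled to a common library size after TMM) and mean Chil3 11748 to 53837 CPM. Apart from Siglecf, the other markers of that list are not described here. Siglecf, the sort marker, averaged 420 to 534 CPM in the F-high groups, 265 CPM in young F-low and 173 CPM in old F-low.

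The class II chains, Cd74, Ciita and H2-DMb1 were higher in old than in young macrophages in all 3 matched groups, naive F-high, asbestos F-high and asbestos F-low. H2-DMa, H2-DMb2, Cd86 and Cd40 were not called in any of them. The 3 chains and Cd74 together went from a median of 2525 CPM (range 1056 to 2996) in young naive cells to 11201 CPM (9007 to 12316) in old naive cells. In the F-high sort after asbestos the medians were 2334 CPM (2297 to 2733) in young and 8006 CPM (5560 to 9791) in old cells. In the F-low sort they were 1978 CPM (1831 to 2055) and 5671 CPM (4336 to 7392). The lowest old library thus lay above the highest young library on this sum. Within an age the neighbouring groups in this order overlapped, apart from young asbestos F-high and young asbestos F-low. The overlap of old asbestos F-high with old F-low came from F-high replicate 3 (5560 CPM): the other 3 libraries held 7466 to 9791 CPM, all above F-low. Before TMM scaling, these 4 genes took 0.427% to 1.35% of all counts in 11 old libraries and 0.117% to 0.327% in the 12 young ones, but 0.175% in old asbestos F-high replicate 3, the library with the large rRNA share.

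**Figure D1:**
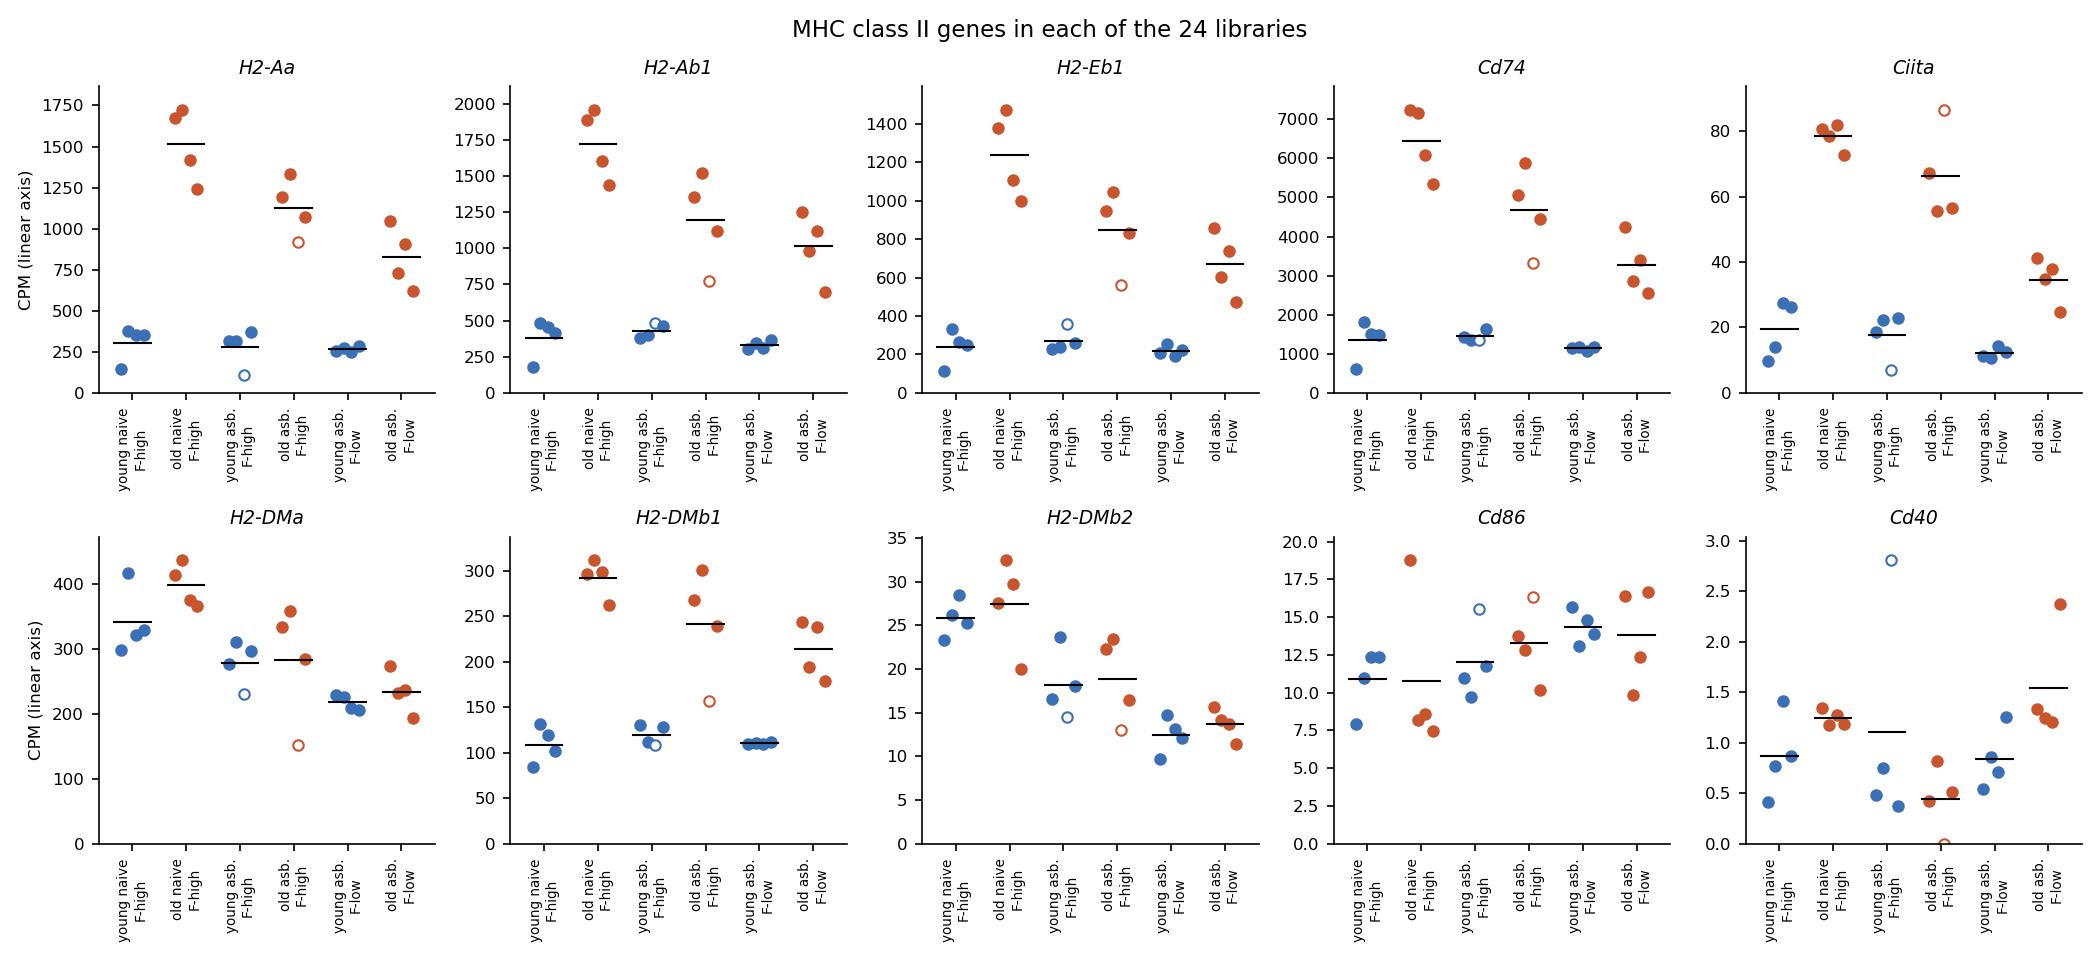
CPM (linear axes) of the 10 genes in each library, young in blue and old in orange, with group means as lines. Open circles are replicate 3 of the asbestos F-high groups. For H2-Aa, H2-Ab1, H2-Eb1, Cd74 and H2-DMb1 all 12 old libraries lie above all 12 young ones, whereas H2-DMa, H2-DMb2, Cd86 and Cd40 overlap.

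Cd74 (ENSMUSG00000024610, chromosome 18, 60803848 to 60812652, plus strand, GRCm38), the chaperone of new class II pairs, was the most abundant of the 10 per length. In naive F-high cells the 4 young libraries held 619, 1801, 1494 and 1475 CPM and the 4 old libraries 7246, 7157, 6084 and 5332 CPM. After asbestos the F-high values were 1439, 1352, 1349 and 1639 CPM in young and 5050, 5893, 3311 and 4445 CPM in old libraries. In asbestos F-low cells they were 1149, 1169, 1075 and 1182 CPM against 4237, 2851, 3409 and 2544 CPM. Old and young libraries did not overlap, and young naive replicate 1 was the lowest of all. The log2 fold change of Cd74 with age was 2.26 ± 0.25 (SE; 4.79-fold; edgeR quasi-likelihood test, Benjamini-Hochberg adjusted p = 3.65e-06) in naive F-high cells. It was 1.69 ± 0.24 (3.24-fold, adjusted p = 0.000175) in asbestos F-high and 1.51 ± 0.24 (2.85-fold, adjusted p = 0.0013) in asbestos F-low cells.

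H2-Ab1 (ENSMUSG00000073421, chromosome 17, 34257689 to 34269419, plus strand), the beta chain of I-A, followed the same order. Young naive libraries held 178, 486, 453 and 413 CPM and old naive ones 1886, 1959, 1606 and 1438 CPM. After asbestos, F-high cells held 379, 397, 480 and 461 CPM in young and 1357, 1521, 771 and 1121 CPM in old libraries. In asbestos F-low cells they were 301, 346, 313 and 367 CPM against 1252, 981, 1118 and 701 CPM. All old values exceeded all young values, with the narrowest gap in the F-high asbestos group at old replicate 3. The log2 fold changes of H2-Ab1 were 2.17 ± 0.25, 1.48 ± 0.25 and 1.61 ± 0.25 in the order naive F-high, asbestos F-high and asbestos F-low (edgeR adjusted p = 7.39e-06, 0.000885 and 0.000931).

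H2-Aa (ENSMUSG00000036594, chromosome 17, 34282744 to 34287823, minus strand) encodes the alpha chain that pairs with H2-Ab1. It was at 143, 378, 352 and 352 CPM in young naive and at 1672, 1725, 1420 and 1238 CPM in old naive libraries. Young libraries of the asbestos F-high sort held 315, 319, 108 and 372 CPM and old ones 1191, 1330, 917 and 1069 CPM. In asbestos F-low cells the values were 257, 271, 249 and 284 CPM against 1045, 731, 906 and 619 CPM. Again no old library reached down to a young one. Its log2 fold changes with age were 2.30 ± 0.30, 2.02 ± 0.30 and 1.64 ± 0.30 (edgeR adjusted p = 4.52e-05, 0.000242 and 0.00366). The partners kept a similar proportion in the 22 libraries: H2-Aa was 0.745 to 0.954 of H2-Ab1 in CPM, and 0.504 to 0.645 per kilobase of exon. The ratio per kilobase was 0.526 to 0.576 in young and 0.582 to 0.599 in old naive libraries. In asbestos F-high cells it was 0.542 to 0.563 and 0.591 to 0.645, again without overlap. In F-low cells the ages overlapped (0.522 to 0.576 and 0.504 to 0.597). The ratio was 0.152 in young asbestos F-high replicate 3 and 0.804 in old asbestos F-high replicate 3. In the former library H2-Aa was the lowest of its group while H2-Ab1 (480 CPM) and H2-Eb1 (359 CPM) were the highest.

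H2-Eb1 (ENSMUSG00000060586, chromosome 17, 34305867 to 34316674, plus strand) is the beta chain of I-E, whose alpha partner is not made in C57BL/6 mice. It rose from 116, 330, 262 and 247 CPM in young naive to 1379, 1475, 1107 and 998 CPM in old naive libraries. The asbestos F-high values were 229, 239, 359 and 260 CPM in young and 947, 1048, 561 and 830 CPM in old libraries, and the F-low values 209, 253, 194 and 223 CPM and 858, 605, 741 and 472 CPM. The log2 fold changes were 2.38 ± 0.26, 1.64 ± 0.26 and 1.61 ± 0.26 (edgeR adjusted p = 3.95e-06, 0.000422 and 0.0013), and young and old libraries did not overlap. The partner's locus, listed here as H2-Ea-ps, had a count in 3 of 24 libraries, at up to 0.117 CPM.

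Ciita (ENSMUSG00000022504, chromosome 16, 10480059 to 10528418, plus strand), the transactivator of class II genes, was less abundant per length than the chains and Cd74 and rose as well. Young naive libraries held 9.83, 13.9, 27.6 and 26.2 CPM and old naive ones 80.5, 78.6, 81.9 and 72.8 CPM. The asbestos F-high values were 18.6, 22.1, 7.06 and 22.8 CPM in young and 67.1, 55.5, 86.6 and 56.5 CPM in old libraries. In asbestos F-low cells they were 11.3, 10.7, 14.4 and 12.4 CPM against 41.2, 34.8, 37.8 and 24.6 CPM. Within each matched pair of groups the old libraries lay above the young ones, but across groups old asbestos F-low replicate 4 (24.6 CPM) fell below the highest young naive libraries. The log2 fold changes of Ciita were 2.02 ± 0.30, 1.88 ± 0.31 and 1.51 ± 0.30 (edgeR adjusted p = 0.000216, 0.000656 and 0.00999). Exons of Dexi, on the opposite strand, overlap Ciita over 329 bases, and the strand setting of the counting was not given in the sources used here.

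H2-DMb1 (ENSMUSG00000079547, chromosome 17, 34153072 to 34160230, plus strand), a beta chain of the peptide exchange factor, rose by less. It was at 83.8, 131, 119 and 102 CPM in young naive and 297, 312, 299 and 262 CPM in old naive libraries. The asbestos F-high values were 130, 112, 108 and 129 CPM in young and 268, 301, 157 and 240 CPM in old libraries. The F-low values were 109, 111, 110 and 112 CPM in young and 243, 194, 239 and 179 CPM in old libraries. The log2 fold changes of H2-DMb1 were 1.42 ± 0.16, 1.02 ± 0.16 and 0.95 ± 0.16 (edgeR adjusted p = 5.8e-06, 0.000442 and 0.00216), with no overlap between ages.

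The other beta chain, H2-DMb2 (ENSMUSG00000037548, chromosome 17, 34143307 to 34151555, plus strand), was not called. It was at 23.3, 26.2, 28.5 and 25.3 CPM in young naive and 27.6, 32.4, 29.7 and 20.01 CPM in old naive libraries, which overlapped. Its log2 differences with age were 0.09 ± 0.18, 0.10 ± 0.19 and 0.15 ± 0.18 (edgeR adjusted p = 1, 0.776 and 1). The ratio of H2-DMb1 to H2-DMb2 in CPM was 3.6 to 5.02 in young naive and 9.61 to 13.1 in old naive libraries. It was 4.73 to 7.86 and 12.0 to 14.6 in asbestos F-high cells, and 7.55 to 11.2 and 13.7 to 17.4 in F-low cells, with no overlap between ages in any of them. Of all stretches of 50 bases in the transcripts, 22.7% of those of H2-DMb1 also occur in H2-DMb2 and 24.8% of those of H2-DMb2 occur in H2-DMb1 or other genes, and how reads with several matches were counted is not given in the sources used here.

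H2-DMa (ENSMUSG00000037649, chromosome 17, 34119541 to 34139101, plus strand), the alpha chain for both, was not called with age either. It was at 298, 417, 322 and 330 CPM in young naive and 415, 437, 375 and 367 CPM in old naive libraries, with overlap. Over all groups young libraries ranged from 206 to 417 CPM and old ones from 153 to 437 CPM. The log2 differences were 0.22 ± 0.18, 0.03 ± 0.18 and 0.11 ± 0.18 (edgeR adjusted p = 1, 0.941 and 1). Set against it, H2-Ab1 was at 0.597 to 2.07 times the CPM of H2-DMa in the 12 young libraries and at 3.61 to 5.05 times in the 12 old ones. Exons of Brd2 on the opposite strand overlap H2-DMa over 360 bases.

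The costimulatory receptors were not called. Cd86 (ENSMUSG00000022901, chromosome 16, 36603869 to 36666081, minus strand), a ligand of CD28 on T cells, was at 7.93 to 15.6 CPM in young and 7.46 to 18.8 CPM in old libraries. Its log2 differences with age were -0.02 ± 0.25, 0.10 ± 0.26 and -0.05 ± 0.25 (edgeR adjusted p = 1, 0.828 and 1). Cd40 (ENSMUSG00000017652, chromosome 2, 165055627 to 165072948, plus strand), the receptor through which T cells license presenting cells, was near the detection limit at 0 to 39 counts per library. It was at 0.374 to 2.80 CPM in young and 0 to 2.37 CPM in old libraries, and its log2 differences were 0.52 ± 0.51, -0.92 ± 0.57 and 0.86 ± 0.51 (edgeR adjusted p = 1, 0.309 and 0.834). The value in asbestos F-high cells rests on young replicate 3 (2.80 CPM) and was 0.13 ± 0.47 with 22 libraries (adjusted p = 0.925). No change of Cd40 with age was detectable at this depth.

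**Figure D2:**
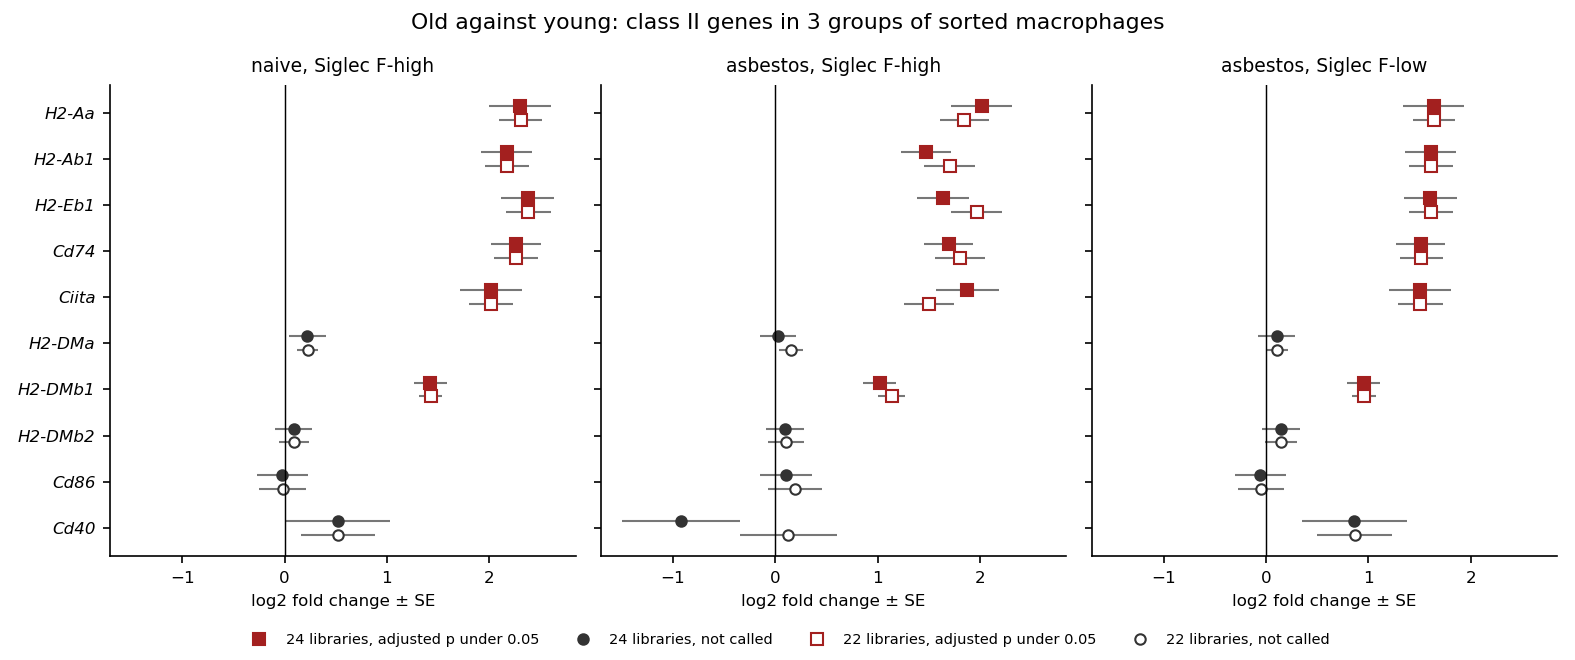
Log2 fold change, old against young, ± SE (x axis) for the 10 genes in the 3 matched groups, with all 24 libraries (filled) or 22 (open). Squares pass an adjusted p of 0.05. The same 6 genes are squares in each panel, between 0.95 and 2.38.

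In counts, 6 of 10 were called higher and 0 lower with age in each of the 3 comparisons, where edgeR called 2.03% of all tested genes in naive F-high, 4.76% in asbestos F-high and 1.29% in asbestos F-low cells. The median log2 difference over the 10 genes was 1.72, 1.25 and 1.23, against -0.01, 0.04 and -0.01 over all genes tested. With 22 libraries the counts were again 6 higher and 0 lower, beside 8.03%, 7.32% and 7.21% of all genes called, and the log2 fold changes in asbestos F-high cells became 1.81 for Cd74, 1.70 for H2-Ab1, 1.85 for H2-Aa, 1.97 for H2-Eb1, 1.51 for Ciita and 1.14 for H2-DMb1. The same 6 genes had every old library above every young one in each comparison, which held for 7%, 5.64% and 6.33% of all genes tested. In a bulk library, fewer cells carrying a transcript and less of it per cell cannot be told apart, so these values do not say whether all old macrophages or a subset held more class II RNA. When only the 8 libraries of the asbestos F-high comparison were fitted, including both libraries named above, 0 of the 9 genes that passed the filter were called, beside 0.139% of all genes (17 of 12237). Among the 6 genes called otherwise, all of which had an unadjusted p under 0.05 there, the edgeR adjusted p ran from 0.0611 for Cd74 to 0.275 for H2-DMb1, and the log2 fold changes from 0.99 for H2-DMb1 to 1.99 for H2-Aa.

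Per kilobase of exon, which allows genes to be compared, the order of mean levels in young naive cells was Cd74 (803 CPM per kb), H2-Ab1 (149), H2-Eb1 (123), H2-DMa (99.1), H2-Aa (80.7), H2-DMb1 (64.9), H2-DMb2 (14.8), Cd86 (2.98), Ciita (2.03) and Cd40 (0.253). In old naive cells it was Cd74 (3844 CPM per kb), H2-Ab1 (671), H2-Eb1 (638), H2-Aa (399), H2-DMb1 (174), H2-DMa (116), H2-DMb2 (15.7), Ciita (8.23), Cd86 (2.94) and Cd40 (0.365). On this measure H2-DMa stood above H2-Aa in young cells and below H2-DMb1 in old ones. In mean CPM H2-DMa was also above H2-Aa in young naive cells (342 against 306). In old naive cells, however, it was above H2-DMb1 (399 against 292 CPM).

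The stretches just upstream of class II genes are shown because class II genes are known to share an upstream element, the S-X-Y module, and H2-DMb2 was not called with them. RefSeq promoter entries (GRCm38.p6) were matched for 5 of the 10 genes, H2-Aa, H2-Eb1, H2-DMa, H2-DMb1 and H2-DMb2, and for H2-Oa, H2-Ob and H2-Eb2. Capitals mark GNAAC, a short form of the X box that RFX binds, and ATTGG, the core of the Y box that NF-Y binds, both chosen after these sequences were seen. The lines run 5′ to 3′ on the gene's strand and end at or just before the annotated start.
H2-Aa, chr17:34287824-34287963, minus strand: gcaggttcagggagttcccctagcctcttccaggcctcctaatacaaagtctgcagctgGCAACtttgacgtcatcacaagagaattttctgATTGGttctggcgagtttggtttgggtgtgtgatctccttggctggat
H2-Eb1, chr17:34305727-34305866, plus strand: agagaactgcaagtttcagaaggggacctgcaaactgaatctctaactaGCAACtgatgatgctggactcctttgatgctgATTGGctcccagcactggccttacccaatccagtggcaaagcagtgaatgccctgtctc
H2-DMb2, chr17:34145109-34145235, plus strand: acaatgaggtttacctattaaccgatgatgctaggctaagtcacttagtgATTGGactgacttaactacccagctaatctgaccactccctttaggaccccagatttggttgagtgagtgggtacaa

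Both H2-Aa and H2-Eb1, which rose about alike, hold GNAAC followed by ATTGG with 28 and 27 bases between them. H2-DMb1 holds the pair too, 28 bases apart, with ATTGG beginning 61 bases before its RefSeq start. H2-DMb2 holds ATTGG without GNAAC at 20 to 40 bases before it, in the 250 bases searched. Its window reads ttaac where that of H2-DMb1 reads GTAAC, at the same spacing before ATTGG, so it misses the chosen pattern by the first base. Neither of the 2 windows of H2-DMa holds the pair. The windows of H2-DMa (ending at 34122831 and 34125517) and of H2-DMb2 (ending at 34145248) lie inside the GENCODE genes. Those genes begin at 34119541 and 34143307. The H2-DMb1 window overlaps a GENCODE exon. The pair, on the same strand and in this order, was in 6 of the 8 genes with an entry, H2-Oa, H2-Ob and H2-Eb2 being the others. It was in 2.84% of all 32851 RefSeq promoter windows, searched on both strands, and ATTGG alone in 33.8%. H2-Ob, which holds the pair, was not called with age, and a match or its absence in a window says nothing about which factor bound there.

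Of the other genes of the pathway, 27 were in the table and 26 were tested. With 24 libraries 1 was higher with age in naive F-high cells, 1 in asbestos F-high and 0 in F-low cells, and none was lower. With 22 libraries the counts were 2 higher and 1 lower, 4 higher and 1 lower, and 0. At an unadjusted p under 0.05 there were 3, 3 and 1 of 26 with 24 libraries, beside 8.64%, 26.3% and 8.15% of all genes, and 8, 8 and 6 with 22, beside 20.7%, 20.5% and 20.2%. H2-Oa, the alpha chain of the H2-DM inhibitor, was the gene called in naive cells: young libraries held 3.65, 4.90, 3.94 and 3.36 CPM and old ones 13.8, 8.08, 11.4 and 6.81 CPM, which is a rise of 1.34 ± 0.33 on the log2 scale (adjusted p from edgeR 0.0286). H2-Oa in asbestos F-high cells passed only with 22 libraries (1.13 ± 0.26, adjusted p = 0.00828; 0.48 ± 0.34 with 24). Its beta partner H2-Ob was at 8.54 to 13.2 CPM in young and 6.28 to 12.5 CPM in old naive libraries (-0.10 ± 0.24, adjusted p = 1).

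Cd274, which encodes the inhibitory ligand PD-L1, was the gene called in asbestos F-high cells. Its libraries held 213, 176, 139 and 178 CPM in young and 293, 255, 265 and 247 CPM in old animals without overlap, which is a rise of 0.59 ± 0.14 on the log2 scale (adjusted p from edgeR 0.0191; 0.50 ± 0.13 with 22 libraries). In naive cells its difference was 0.51 ± 0.14 (adjusted p = 0.0613), which passed with 22 libraries (0.52 ± 0.12, adjusted p = 0.00564). Cd80, the second CD28 ligand, was at 17.6 to 22.4 CPM in young and 13.3 to 18.3 CPM in old naive libraries (-0.32 ± 0.24, adjusted p = 0.998). The RFX subunits, which Ciita needs at class II promoters, were looked at after their values were seen. In naive cells Rfx5 differed by 0.05 ± 0.32, Rfxap by -0.22 ± 0.16 and Rfxank by -0.08 ± 0.12 (edgeR adjusted p = 1, 0.968 and 1).

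**Figure D3:**
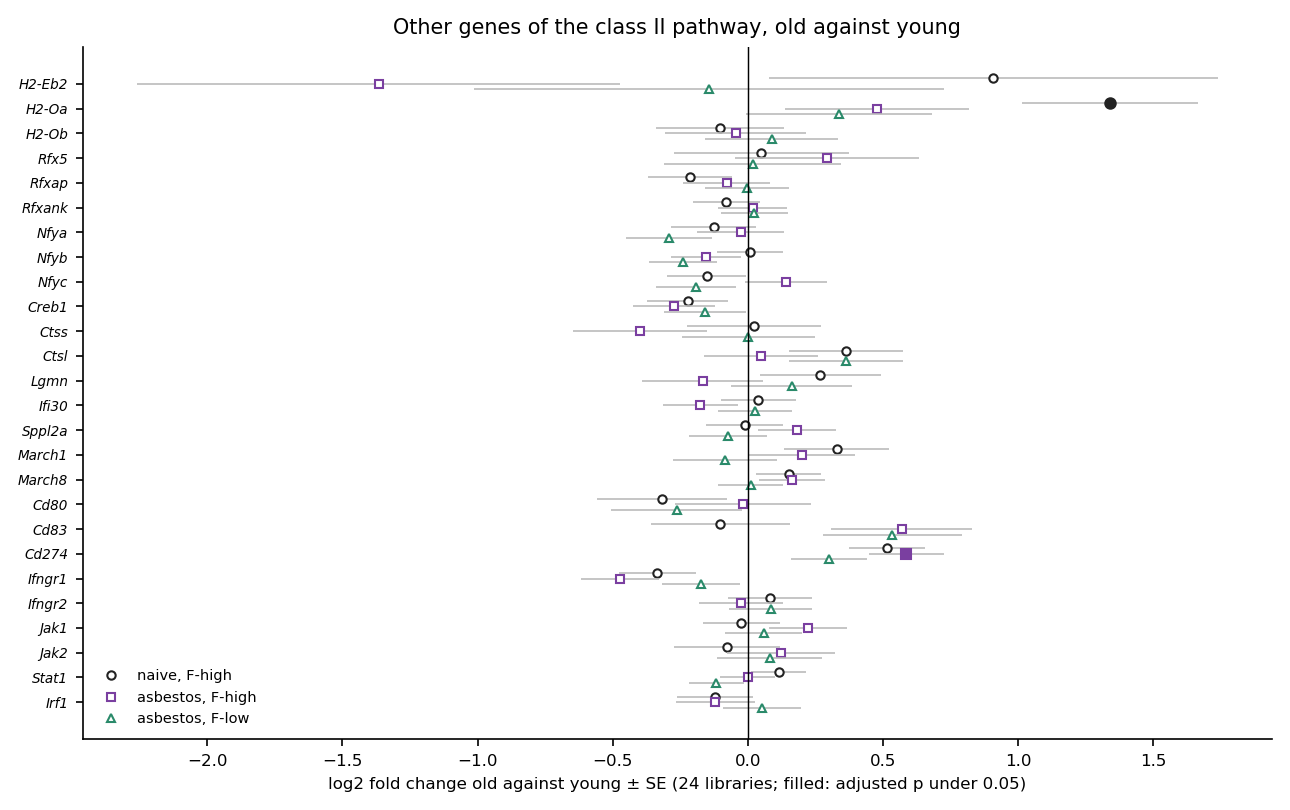
Log2 fold change, old against young, ± SE (x axis) for the 26 other pathway genes tested, from 24 libraries, with 1 symbol per comparison. Filled symbols pass an adjusted p of 0.05: H2-Oa in naive F-high and Cd274 in asbestos F-high cells.

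B cell transcripts were counted beside these genes as a check on carried-over cells. Of the B cell list 19 genes were in the table, and they fell into 3 parts. Cd22 alone ran at 124 to 190 CPM in 23 libraries and at 48.8 CPM in young asbestos F-high replicate 3 and was kept apart. The 13 further B cell genes, among them Cd79a, Cd79b, Ms4a1 and Pax5, were low and did not follow class II: they summed to 51.5 to 76.1 CPM in young naive and 38.3 to 66.9 CPM in old naive libraries. In asbestos F-high cells the sums were 20.3 to 33.1 and 19.4 to 32.4 CPM, and in F-low cells 21.5 to 32.6 and 22.2 to 33.5 CPM, in young and old. These groups overlapped throughout. Of the 12 tested, 0 were called higher or lower with age in any of the 3 comparisons with 24 or with 22 libraries (edgeR). Of all genes 2.03%, 4.76% and 1.29% were called with 24 and 8.03%, 7.32% and 7.21% with 22, so 0 of 12 is close to these shares. At an unadjusted p under 0.05 there were 0, 2 and 0 of 12 with 24 libraries, beside 8.64%, 26.3% and 8.15% of all genes. The median log2 difference of the 12 genes with age was -0.26, -0.07 and -0.00 in naive F-high, asbestos F-high and asbestos F-low cells.

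Cd79a, a signalling chain of the B cell receptor, held 8.34, 14.4, 7.63 and 9.27 CPM in young naive and 7.23, 10.2, 9.83 and 5.33 CPM in old naive libraries, in which class II was higher. Ms4a1, which encodes CD20, held 4.62 to 6.34 CPM in young and 4.26 to 8.25 CPM in old naive libraries. Neither gene was at 0 in the naive libraries, and young and old overlapped for both. In the asbestos F-high group, 5 of the 13 genes were at 0 in young replicate 3 and 3 in old replicate 3.

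Of the 4 immunoglobulin genes and Jchain, 1, 2 and 2 were called higher with age with 24 libraries and 1, 4 and 3 with 22. Ighm held 30.2, 46.4, 33.7 and 30.6 CPM in young naive and 257, 122, 173 and 118 CPM in old naive libraries, which is a rise of 2.25 ± 0.38 on the log2 scale (adjusted p from edgeR 0.000871). Ighm in asbestos F-high cells changed by 1.79 ± 0.38 (adjusted p = 0.00859) and Igkc by 1.66 ± 0.39 (adjusted p = 0.0181), and in F-low cells by 1.62 ± 0.37 (0.0267) and 1.73 ± 0.39 (0.0248). Ighd differed by -0.46 ± 0.44 and Iglc2 by -0.67 ± 0.60 in naive cells (adjusted p = 1 for both). The sum of the 5 genes was 77.5 to 156 CPM in young and 215 to 409 CPM in old naive libraries. In asbestos F-high cells it was 37.1 to 56.7 and 49.2 to 191 CPM, and in F-low cells 44.6 to 59.8 and 92.7 to 225 CPM. One old asbestos F-high library, replicate 4, had an immunoglobulin and Jchain sum of 49.2 CPM and a class II sum of 7466 CPM. The young libraries of that sort held at most 2733 CPM of class II. The sum of 49.2 CPM lay below that of young replicate 3 (56.7 CPM), which the fit with 22 libraries left out. It lay above the other young libraries of that sort (37.1 to 44.4 CPM).

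**Figure D4:**
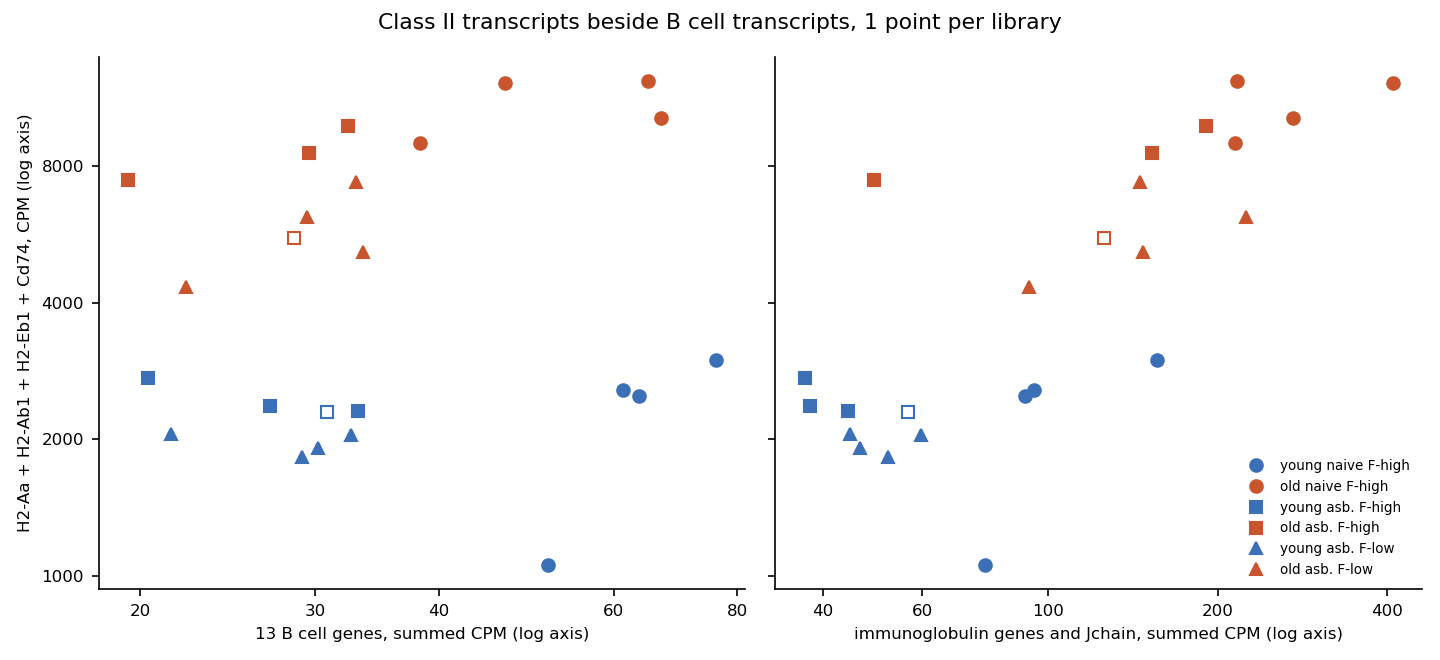
Summed CPM of H2-Aa, H2-Ab1, H2-Eb1 and Cd74 (y, log axis) in each library against the 13 B cell genes (left) and the immunoglobulin genes with Jchain (right). Young (blue) and old (orange) libraries separate on y at the same B cell gene level. On the right the old libraries (49.2 to 409 CPM) and the young ones (37.1 to 156 CPM) overlap across groups. Within naive F-high cells the ages separate there too (77.5 to 156 CPM in young, 215 to 409 CPM in old). The same holds in asbestos F-low cells (44.6 to 59.8 and 92.7 to 225 CPM). In asbestos F-high cells (37.1 to 56.7 and 49.2 to 191 CPM) the overlap comes from young replicate 3. Open symbols are replicate 3 of the asbestos F-high groups.

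With the summed level of all 19 B cell genes, Cd22 included, as a covariate, edgeR called 6, 6 and 5 of the 10 genes higher with age with 24 libraries, and 6 in each comparison with 22. Cd22 made up a large part of this sum. In F-low cells it held 181 to 187 CPM in young and 145 to 190 CPM in old libraries, where the sums were 249 to 273 and 305 to 433 CPM. The call missing in F-low cells was that of Ciita (adjusted p = 0.0777). With the 13 B cell genes alone as the covariate, chosen after the levels were seen, the counts were 6 in each comparison with 24 libraries, and 7, 6 and 6 with 22. None of these genes tested was called with age, so this fit could hardly take away an age difference and cannot decide the question. No fit took the immunoglobulin genes alone as the covariate. The share of all genes called was not taken for the covariate fits, so these counts stand without it. Whether cells that make immunoglobulin but few other B cell transcripts brought class II RNA into the old libraries was not tested.

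Over all genes tested, edgeR called 2.03%, 4.76% and 1.29% with age with 24 libraries, and 8.03%, 7.32% and 7.21% with 22. Markers of other cell types were read like the B cell genes over the age comparisons, with 24 libraries and edgeR. Of 12 dendritic cell genes tested, 0 were higher and 1 was lower in naive cells (Cd209a), 1 lower in asbestos F-high (Ccr7) and 0 in F-low. The dendritic cell list, whose cells are rich in class II, summed to 48.2 to 67.9 CPM in young and 48.0 to 60.1 CPM in old naive libraries. In asbestos F-high cells it was at 55.7 to 75.4 and 54.7 to 76.1 CPM, and these ranges overlapped. In F-low cells it was at 71.3, 133, 82.8 and 76.3 CPM in young and 130, 110, 121 and 112 CPM in old libraries, so that 3 young libraries lay below all old ones and replicate 2 above them. The part of the dendritic cell genes in the class II difference was not tested. With 22 libraries Clec9a was higher in old naive (0.69 ± 0.18) and old asbestos F-high cells (1.04 ± 0.21). Of 8 monocyte genes, 0, 2 and 0 were higher with 24 libraries (Ly6c2 and Ace in asbestos F-high cells) and 1, 3 and 5 with 22 (1 lower in naive cells), and the list summed to 182 to 201 CPM in young and 216 to 241 CPM in old naive libraries, without overlap. The monocyte sums were 94.5 to 181 and 179 to 277 CPM in asbestos F-high cells, and 155 to 178 and 179 to 262 CPM in F-low cells. Of 9 T cell genes edgeR called 0 with 24 or with 22 libraries, with 0, 3 and 0 at an unadjusted p under 0.05 with 24, all lower. The part of the monocyte genes in the class II difference was not tested.

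Asbestos was set against naive in the F-high sort at each age. Of the 10 genes 0 were called in young cells and 0 in old cells, with 24 libraries (1.9% and 0.78% of all genes called) and with 22 (5.06% and 4.12%). At an unadjusted p under 0.05 there were 1 and 4 of 10 with 24 libraries, and 1 and 3 with 22, all lower, beside 19.6% and 8.55% of all genes with 24 and 18.3% and 17.7% with 22. DESeq2 and limma voom called 0 at both ages. In old cells 9 of the 10 log2 differences were negative: Cd74 differed by -0.47 ± 0.24, H2-Ab1 by -0.53 ± 0.24 and H2-DMa by -0.49 ± 0.18 (edgeR adjusted p = 0.627, 0.531 and 0.343). In young cells Cd74 differed by 0.10 ± 0.23 and H2-DMb2 by -0.50 ± 0.18 (adjusted p = 0.83 and 0.149).

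Of the 12 tested B cell genes, 4 fell after asbestos in young cells with 24 libraries and 9 with 22 (edgeR). In old cells 0 and 3 did, and all 12 differences lay below 0 in each of these fits. H2-Ob, an inhibitor chain at home in B cells, also fell after asbestos in young cells, by 1.01 (± 0.24; adjusted p = 0.0309). Lgmn, an endosomal protease, rose by 1.08 ± 0.23 in the same comparison (adjusted p = 0.0123).

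The question whether asbestos acted differently by age was addressed with the difference of differences. It was called for 0 of 10 genes with 24 libraries (0% of all genes called by edgeR, with 1050 of 13467 genes and 1 of 10 at an unadjusted p under 0.05) and for 0 with 22 (0.0147%, 703 of 13629 and 0 of 10). DESeq2 and limma voom called 0 as well. For H2-Eb1 it was -0.73 ± 0.35 (adjusted p = 0.587) and for Cd74 -0.57 ± 0.33 (adjusted p = 0.593), and with 22 libraries -0.41 ± 0.32 and -0.46 ± 0.31 (adjusted p = 0.998 for both).

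In animals given asbestos, the F-low sort was set against the F-high sort. With 24 libraries 0 of the 10 genes were called at either age (4.99% of all genes in young and 4.3% in old), with 1 and 4 at an unadjusted p under 0.05, beside 20.7% and 15.4% of all genes. With 22 libraries Ciita, H2-DMa and H2-DMb2 were lower in F-low at both ages, and Cd40 was higher in old F-low, beside 12% and 11.6% of all genes. In that fit Ciita fell by 0.80 (± 0.24; edgeR adjusted p = 0.0305) in young and by 0.79 (± 0.22; 0.0194) in old cells. H2-DMa fell by 0.44 (± 0.11; 0.00914) and by 0.48 (± 0.11; 0.00451), and H2-DMb2 by 0.65 (± 0.17; 0.0116) and by 0.60 (± 0.17; 0.0188). The chains and Cd74 did not pass: Cd74 differed by -0.37 ± 0.22 and -0.66 ± 0.22 (adjusted p = 0.32 and 0.0544). With a replicate block on the 22 libraries these calls stood, and in old cells H2-DMb1 was called lower as well (log2 difference -0.37 ± 0.12, edgeR adjusted p = 0.0372).

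In single libraries, Ciita was at 10.7 to 14.4 CPM in the 4 young F-low libraries and at 18.6 to 22.8 CPM in 3 young F-high ones, with replicate 3 at 7.06 CPM. H2-DMb2 was at 9.71, 14.7, 13.1 and 12.0 CPM in young F-low libraries and at 16.6, 23.7, 14.5 and 18.0 CPM in young F-high ones. In old cells it was at 15.6, 14.2, 13.7 and 11.4 CPM in F-low and at 22.2, 23.4, 13.1 and 16.4 CPM in F-high. In both ages the overlap between sorts came from replicate 3 of F-high, the library left out of the smaller fit. Cd40 was at 1.33, 1.24, 1.2 and 2.37 CPM in old F-low and at 0.422, 0.820, 0 and 0.509 CPM in old F-high libraries, a log2 difference of 1.37 ± 0.42 with 22 libraries (adjusted p = 0.0325). The difference between the ages in this contrast was called for 0 of 10 with 24 libraries (0% of all genes, 650 genes and 1 of 10 at an unadjusted p under 0.05) and for 0 with 22 (0.0147%, 870 and 0).

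**Figure D5:**
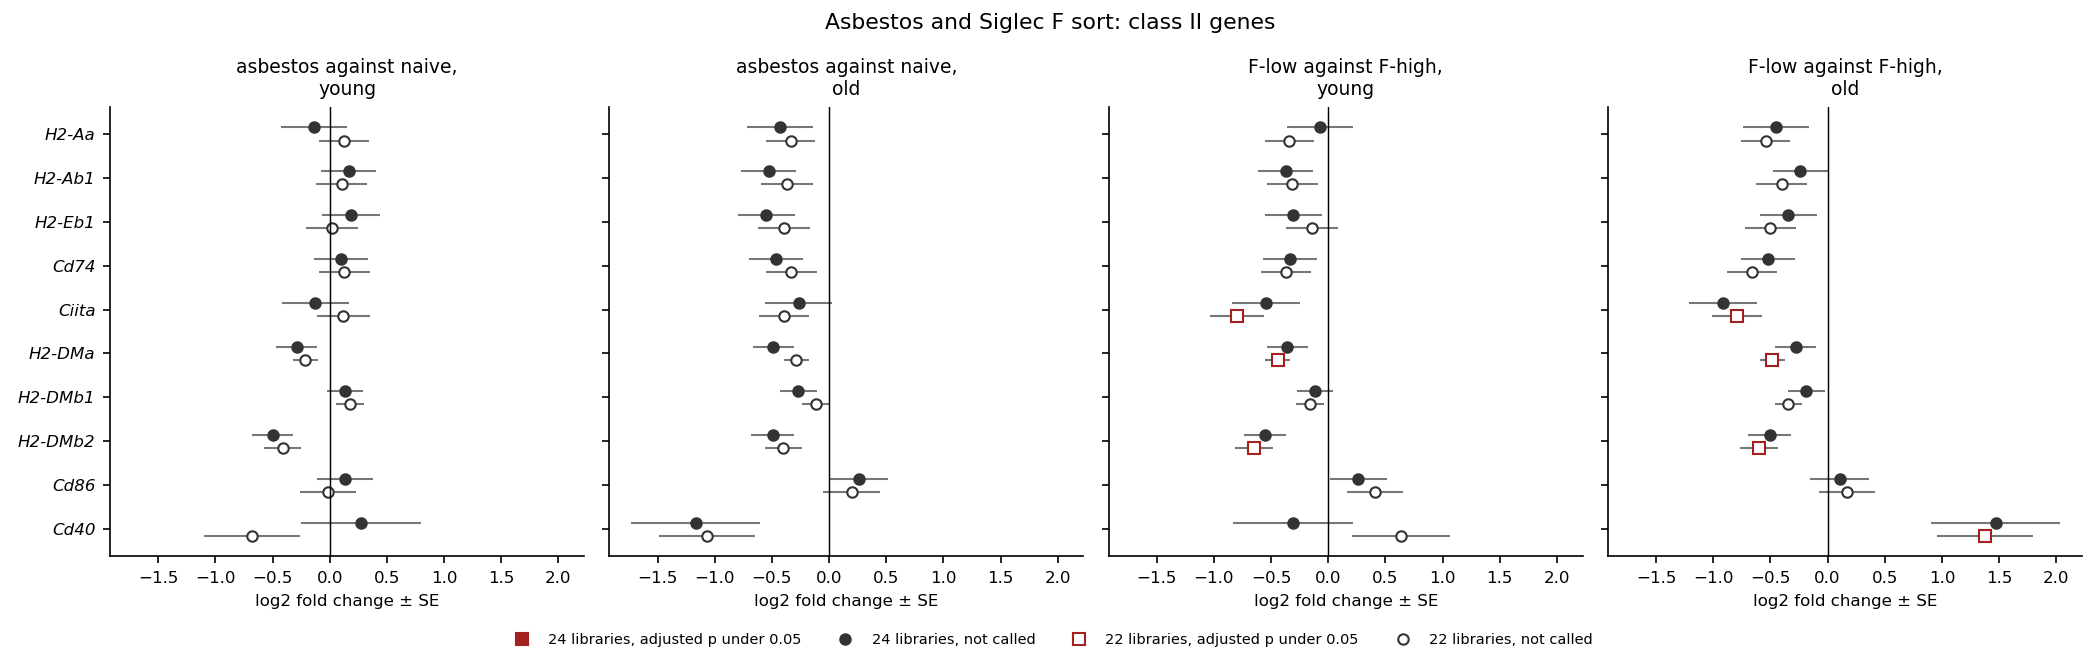
Log2 fold change ± SE (x axis) of the 10 genes for asbestos against naive and for F-low against F-high at each age, with 24 libraries (filled) or 22 (open). Squares pass an adjusted p of 0.05. Squares appear among the 22-library values of the sort comparisons: Ciita, H2-DMa and H2-DMb2 at both ages and Cd40 in old cells.

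Of the 26 other pathway genes, 1 was higher in F-low in young and 2 in old cells with 24 libraries, and with 22 there were 4 higher in young, and 4 higher and 1 lower in old. Ctsl, an endosomal protease, rose by 1.10 ± 0.21 in young and 1.42 ± 0.21 in old cells (edgeR adjusted p = 0.00243 and 0.000282, 24 libraries). Lgmn, another, rose by 1.08 ± 0.23 in old cells (adjusted p = 0.00641), differed by 0.75 ± 0.23 in young ones (adjusted p = 0.0567), and rose with 22 libraries by 1.07 ± 0.13 in young and 0.88 ± 0.12 in old cells. Ctss, the protease known for the last cuts of Cd74, differed by 0.00 ± 0.25 in young and 0.40 ± 0.25 in old cells (adjusted p = 0.999 and 0.488), and passed in young cells with 22 libraries (0.38 ± 0.12, adjusted p = 0.0413).

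Across the 22 libraries, the 10 genes fell into sets by how closely they followed the mean log2 CPM of the 3 chains and Cd74. Pearson's r with that profile was 0.988 for H2-DMb1 and 0.948 for Ciita, but 0.493 for H2-DMa, 0.402 for Cd40, 0.339 for H2-DMb2 and -0.043 for Cd86. H2-DMa and H2-DMb2 followed each other (r = 0.914). For H2-DMb1 and Ciita these values largely reflect the split by age that they share with the profile. H2-DMa and H2-DMb2 were not called with age. At each age both had their highest group mean in naive cells and their lowest in F-low cells. After each group's mean was removed, H2-Aa and Cd74 still had r = 0.988 and H2-Ab1 and H2-DMb1 r = 0.866, while Ciita had r = 0.616 with Cd74. On that measure H2-DMa had r = 0.720 with Cd74, above Ciita. Cd86 had r = 0.489, H2-DMb2 0.408 and Cd40 0.346 with Cd74. The sets above thus hold for the values with group means kept, and not in the same form within groups. Among genes with a given name outside the list, those closest to the profile by the same measure were Hmcn1 (r = 0.951), Slc1a3 (0.942), Esrrg (0.929), Klhl41 (0.920), Rbfox2 (0.919), Rasef (0.919), Srgap1 (0.913) and the immunoglobulin segment Igkv3-2 (0.912), where 1% of all genes tested had r above 0.766. All r are over libraries that cluster by age, share the scaling and carry no p.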

How the data were processed

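Poly(A) RNA-seq libraries of sorted lung macrophages were read from a table of raw counts per Ensembl gene that the authors deposited. Per the submitters' processing notes the tools were bcl2fastq 2.19.1, FastQC, Trimmomatic 0.36, STAR 2.6.0 and HTSeq 0.11.2 with the mm10 genome, and no source used here gives the strand and multi-mapping settings. Samples were grouped by age, exposure and Siglec F sort from the labels. Counts were fitted with edgeR 4.0.16 (R 4.3.3) after filterByExpr (minimum count 10, minimum total 15) and TMM scaling, with 1 term per group over all 24 libraries, quasi-likelihood F tests and Benjamini-Hochberg adjustment over all genes tested (threshold 0.05). The fit was repeated without replicate 3 of both asbestos F-high groups. CPM used TMM-scaled library sizes, and log2 CPM a prior count of 2. DESeq2 1.42.0 (Wald) and limma 3.58.1 (voom with quality weights) were alternatives, with other scalings, no filter, only the groups compared, B cell level as a covariate, a replicate block and each library left out. The statistics were tested on simulated data.

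The 10 genes and all lists were chosen with earlier results of these data known. Other pathway genes were named where both the 24- and the 22-library fit called them in the same direction, plus H2-Oa, H2-Ob, Cd80 and the H2-Ea locus. Likeness names the 8 genes with a given name closest to the mean of H2-Aa, H2-Ab1, H2-Eb1 and Cd74. Genes without a symbol, or with a provisional one (Gm, Rik or accession type), were left out of that ranking. The labels do not say that replicate numbers mark shared animals, and with 24 libraries no pair of groups had every same-number correlation of deviations above 0.1. With 22 libraries 1 pair of groups did, old asbestos F-high and F-low (3 correlations, 0.165 to 0.215; other numbers at most 0.0279). Positions are GENCODE M21 (GRCm38), and promoter sequences are RefSeq GRCm38.p6.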

Additional observations from a re-analysis of the deposited data

Results flagged for a closer look

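Of the 60 sets of 4 libraries (10 genes in 6 groups), 4 held a library that stood far from the other 3 by Dixon's criterion, and chance gives about 1 in 20. H2-Aa was at 143 CPM in young naive replicate 1, against 352 to 378 CPM in the other 3. The other class II chains and Cd74 were also lowest there. Cd86 was at 18.8 CPM in old naive replicate 1, against 7.46 to 8.56 CPM. Cd40 was at 2.80 CPM in young asbestos F-high replicate 3, against 0.374 to 0.745 CPM, and at 2.37 CPM in old asbestos F-low replicate 4, against 1.20 to 1.33 CPM. Cd40 rests on at most 39 counts per library.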

How the results depend on the processing

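The age result, 6 of 10 genes higher in each comparison, stood at 6 when any single library was left out, with DESeq2, voom, a replicate block, other scalings and no filter. With only the 8 asbestos F-high libraries fitted it was 0. The sort comparison depended most on the choices. In young cells 0 were called with all libraries, 3 with 22 libraries, 3 with voom, 1 with DESeq2, 1 with either B cell covariate (3 with 22 libraries), 3 with a replicate block on 22 libraries, and 0 to 1 with 1 library left out (1 without young asbestos F-high replicate 3). In old cells 0 were called with all libraries, 4 with 22 libraries, 5 with voom, 1 with DESeq2, 1 with only the groups compared, and 5 with a replicate block on 22 libraries. There the B cell level as covariate gave 1 (7 with 22 libraries), the 13 B cell genes 1 (6 with 22), and leaving out 1 library 0 to 3 (3 without young asbestos F-high replicate 3). Asbestos against naive in young cells gave 0 to 1 with 1 library left out (1 without young asbestos F-high replicate 2). Of these settings, the share of all genes called was taken only with 24 libraries, with 22, and with only the groups compared. The other counts stand without it. The cause of these moves was not tested. None of the followed fold changes, those of genes called with 24 or 22 libraries, reversed under these settings. Of all 90 differences (10 genes, 9 contrasts), 9 changed sign between 24 and 22 libraries and 0 of these were called in either: Cd40 in 3 contrasts, and H2-Aa, Ciita and Cd86 for asbestos in young cells, plus 3 differences of the sort contrast between ages (H2-Ab1, Ciita and H2-DMa). The 2 libraries set apart, and 4 libraries per group, limit these results, and at a level like that of Cd40 depth does too.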
